A study of Mus musculus with 6 samples.

Results

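miR-21a is a microRNA (miRNA) whose hairpin precursor is cut by Dicer into a 5p arm and a 3p arm, and the sequences analysed here are all rows of the deposited table that its miRNA annotation names mmu-miR-21a-5p or mmu-miR-21a-3p. They were chosen by the annotated name alone, and no sample value entered the rule. Values below are given in the order of replicates 1, 2 and 3 of each group. There were 325 such sequences among 109434 listed, 321 of the 5p arm and 4 of the 3p arm. Above 0 in at least 1 sample were 240 of them, out of 65087 such sequences (236 of the 5p arm, 4 of the 3p arm), and 85 sequences of the 5p arm were at 0 in all 6 samples. A mean of at least 1 RPM (reads scaled by the authors to the reads of the library) was reached by 101 sequences of the 5p arm and 2 of the 3p arm, and 64 sequences of the 5p arm were above 0 in every sample.

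The table held RISC-bound short RNAs (R-sRNAs) from the brains of 3 control (WT) and 3 Tau tg mice, all male, 3 months old and on a C57BL/6J background. Tau tg mice carry a fragment of human tau driven by the neuronal Thy 1.2 promoter, and the controls lack it. Argonaute (Ago) proteins, which hold the guide strand in RISC, were pulled down with a peptide derived from GW182, and RNA of 19 to 35 nt was cut from a gel before sequencing. The sample labels give the source as hippocampus, whereas their protocol states that cortex and hippocampus were combined. The comparison asked whether the Ago-bound short RNAs of the tau model differ from those of controls.

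A miRNA recognizes its targets mainly through the seed, bases 2 to 8 of the guide, so a 5′ end that is moved by 1 base changes the set of matching sites, while extra or missing bases at the 3′ end leave the seed as it is. In miR-21 the 5p arm is the guide that accumulates, and the 3p arm is the passenger strand. miR-21 is known as a miRNA induced in inflammation and in many tumours, and in the brain it is best known from glia and from reactive states.

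The Mir21a hairpin lies at chr11:86584067-86584158 on the minus strand of GRCm38, inside exon 12 of Vmp1 (chr11:86583865-86585451, same strand), within the part annotated as UTR. The annotated 5p arm spans chr11:86584120-86584141 and the 3p arm chr11:86584082-86584103. Their RefSeq mature sequences (GRCm38.p6) are shown first, with the seed in capitals.

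miR-21a-5p: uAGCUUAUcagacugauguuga

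miR-21a-3p: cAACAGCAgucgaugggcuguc

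The 5p reads below carried most of the reads and are shown because they differ at the 3′ end only. Capitals mark the seed and each base beyond the annotated end. In the hairpin the annotated 5p sequence is followed by CUGUU, so the 23-nt form and the form ending in CU match the hairpin, whereas the A after the annotated end and the A after the 23rd base do not.

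miR-21a-5p, 23 nt: uAGCUUAUcagacugauguugaC

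miR-21a-5p, 21 nt: uAGCUUAUcagacugauguug

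miR-21a-5p, 23 nt and A: uAGCUUAUcagacugauguugaCA

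miR-21a-5p, 23 nt and U: uAGCUUAUcagacugauguugaCU

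miR-21a-5p, 22 nt and A: uAGCUUAUcagacugauguugaA

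The next 2 reads begin 1 and 2 bases after the annotated start, and capitals mark bases 2 to 8 of each, which are another seed than that of the annotated guide.

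5p read with a start at +1: aGCUUAUCagacugauguugac

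5p read with a start at +2: gCUUAUCAgacugauguugac

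The 3 most abundant reads that the table names miR-21a-3p are shown last, with their own bases 2 to 8 in capitals. The second of them begins 2 bases after the annotated start.

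3p read, 21 nt: cAACAGCAgucgaugggcugu

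3p read with a start at +2: aCAGCAGUcgaugggcugucu

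3p read, 20 nt: cAACAGCAgucgaugggcug

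The whole-read counts recovered from the RPM values came to 998248 to 6879551 reads a sample, and 35518 to 127596 of them were miR-21a-5p, so the shares of 5p reads given here have 95% Wilson intervals of at most ±0.505 percentage points. These intervals and the limits for 0 reads cover counting error only, since the PCR-amplified reads carry no molecular identifiers. Summed levels of 5 neuronal miRNAs lay at 142972 to 152905 RPM among WT and 142722 to 160128 RPM among Tau tg samples and 3 oligodendrocyte miRNAs at 8442 to 13591 and 10627 to 13997 RPM. Among the neuronal miRNAs, miR-9-5p did not overlap between the groups, with 37677, 29427 and 29628 RPM against 44564, 48005 and 46351 RPM (log2 difference 0.53 ± 0.32, SE; limma, adjusted p = 0.896). The 5 miRNAs of microglia and blood leukocytes summed to 1864 to 2405 RPM among WT and 1980 to 2768 RPM among Tau tg samples. The sums of 4 other lists overlapped between the groups as well (endothelium 4286 to 9926 against 6226 to 10575 RPM, smooth muscle and pericytes 3593 to 5005 against 2970 to 4822 RPM, choroid plexus 1789 to 4869 against 1980 to 8137 RPM, red blood cells 556 to 1070 against 474 to 1130 RPM with miR-486a-5p at 0 throughout). The 8 miRNAs of epithelium and pituitary did not overlap, with 3471 to 10136 RPM among WT and 2651 to 2923 RPM among Tau tg samples, and 4 of the 8 (miR-200a-3p, miR-200b-3p, miR-200c-3p and miR-429-3p) were lower among Tau tg samples at an unadjusted limma p under 0.05, a p that 3.63% of all miRNAs had in either direction, and their adjusted p was at least 0.188. In the same list miR-375-3p was at 41.2, 53.5 and 59.6 RPM among WT and at 61.3, 76.1 and 89.2 RPM among Tau tg samples, higher without overlap, and its adjusted p was 0.896. Whether the cells behind that list took part in any miR-21a value was not tested.

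The 5p arm was among the most abundant miRNAs bound to Ago in all 6 samples. Mouse and human 5p reads cannot be told apart, and whether human RNA or another library contributed to this level was not tested. The level of the 5p arm did not separate the groups. WT mice had 17276, 25945 and 52006 RPM, and Tau tg mice 18156, 29704 and 42785 RPM. WT 3 and Tau tg 3 were the highest and WT 1 and Tau tg 1 the lowest, and the values of the groups interleaved. The mean was 31742 ± 18076 RPM among WT and 30215 ± 12323 RPM among Tau tg mice (SD, n = 3 each). Within WT the highest sample was 3.01 times the lowest. By level the 5p arm ranked 9, 6 and 2 among the named miRNAs for WT mice, and 11, 7 and 3 for Tau tg mice. On the log2(RPM + 1) scale the difference between Tau tg and WT was −0.00 ± 0.42 (SE; limma across 689 miRNAs, adjusted p = 0.998), beside a median of 0.25 over all miRNAs tested. Leaving out WT 3 turned it to 0.43 and leaving out WT 1 to −0.37, with no adjusted p under 0.781 in any such fit. The number of cells that hold miR-21a and the amount of miR-21a per cell cannot be told apart in these bulk samples.

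**Figure D1:**
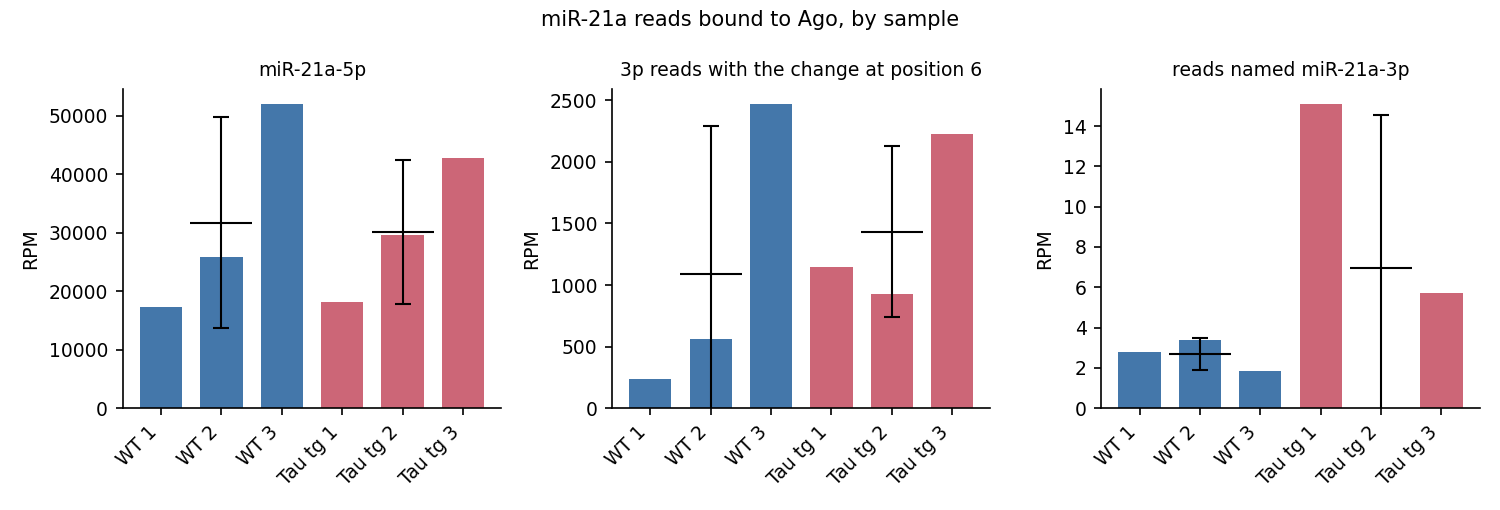
Level in RPM (vertical axes, each from 0) of miR-21a-5p, of 3p-arm reads that carry the change G6C, and of the reads named miR-21a-3p, by sample. Bars are single mice, and the black marks are the group mean ± SD (n = 3). The named 3p reads reach at most 15.1 RPM against 5p levels of 17276 to 52006 RPM, and WT 3 and Tau tg 3 hold the 2 tallest bars for the 5p arm and for the G6C reads.

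The seed AGCUUA of the 5p arm is borne by almost nothing else in these samples. Reads with that 6mer seed made up 1.78%, 2.75% and 5.67% of the RPM for WT mice and 1.85%, 3.02% and 4.39% for Tau tg mice, and 98.4% to 98.7% of them were named miR-21a-5p. Another 1.2% to 1.4% had no miRNA name. miR-590-5p, a miRNA that shares this seed, held 1.67 to 85.4 RPM. No row was named miR-21b or miR-21c, the paralogs in RefSeq. The table's 6mer seed viability, the mean viability of 3 mouse cell lines after transfection of an siRNA with that seed, is 80.2% for AGCUUA.

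The most frequent miR-21a-5p read was not the annotated 22-nt sequence but the 23-nt form with the next hairpin base. WT mice held 9026, 15958 and 35835 RPM of the 23-nt form, and Tau tg mice 10552, 17561 and 29804 RPM, which is 63.9% of the summed RPM of the arm. The annotated 22-nt form followed with 4882, 6432 and 11248 RPM among WT and 4913, 7583 and 9143 RPM among Tau tg samples, or 23.8% of the sum. In every sample the 23-nt form exceeded the 22-nt form. The 21-nt form was 5.79% of the sum and varied least of the 3, from 1292 RPM in Tau tg 3 to 2186 RPM in Tau tg 2. All 3 forms overlapped between the groups, with means of 20273 ± 13916 against 19306 ± 9744 RPM for the 23-nt form, 7521 ± 3320 against 7213 ± 2139 RPM for the 22-nt form and 1913 ± 164 against 1672 ± 462 RPM for the 21-nt form (WT against Tau tg, SD, n = 3 each).

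Reads longer than 22 nt were 57.2%, 66.3% and 73.0% of the 5p reads for WT mice, and 62.4%, 63.6% and 73.6% for Tau tg mice. The samples with the highest 5p level, WT 3 and Tau tg 3, had the largest share of long reads, and WT 1, with the lowest level, had the smallest. The ratio of 23-nt to 22-nt reads was 1.85, 2.48 and 3.19 for WT mice and 2.15, 2.32 and 3.26 for Tau tg mice. The ratio of 21-nt to 22-nt reads ran the other way, from 0.406 in WT 1 and 0.313 in Tau tg 1 to 0.181 in WT 3 and 0.141 in Tau tg 3. These differences between mice of 1 group were far wider than the counting error of the shares. Level and length come from the same reads, and their relation was not tested.

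**Figure D2:**
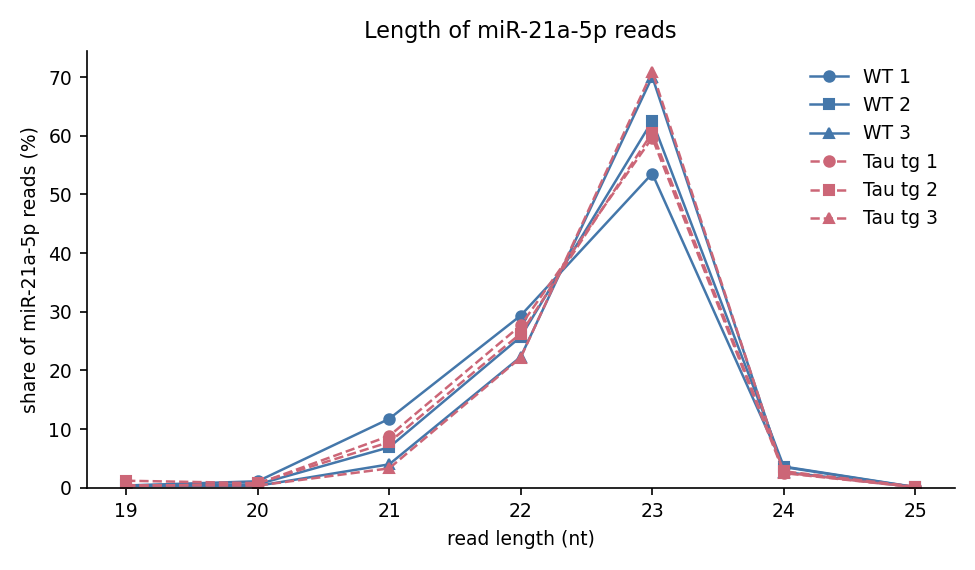
Share of miR-21a-5p reads (vertical axis, percent) by read length in nt (horizontal axis), 1 line per mouse, WT solid and Tau tg dashed. All 6 lines peak at 23 nt, between 53.6% in WT 1 and 70.9% in Tau tg 3, and lines of both groups interleave.

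A majority of long reads was not the rule among abundant miRNAs. Of 86 miRNAs with a mean of at least 1000 RPM and a RefSeq mature sequence, 12 had more than 50% of their reads longer than annotated, and miR-21a-5p ranked 7 with a mean of 66.0% beside a median of 13.6%. The median over the 86 miRNAs was 12%, 13.3% and 14.6% for WT mice and 12.1%, 14.1% and 14.0% for Tau tg mice. This median was thus lowest in WT 1 and Tau tg 1, the same mice in which the share for miR-21a-5p was lowest within each group, over a range of 2.55 percentage points where that of miR-21a-5p was 16.4.

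**Figure D3:**
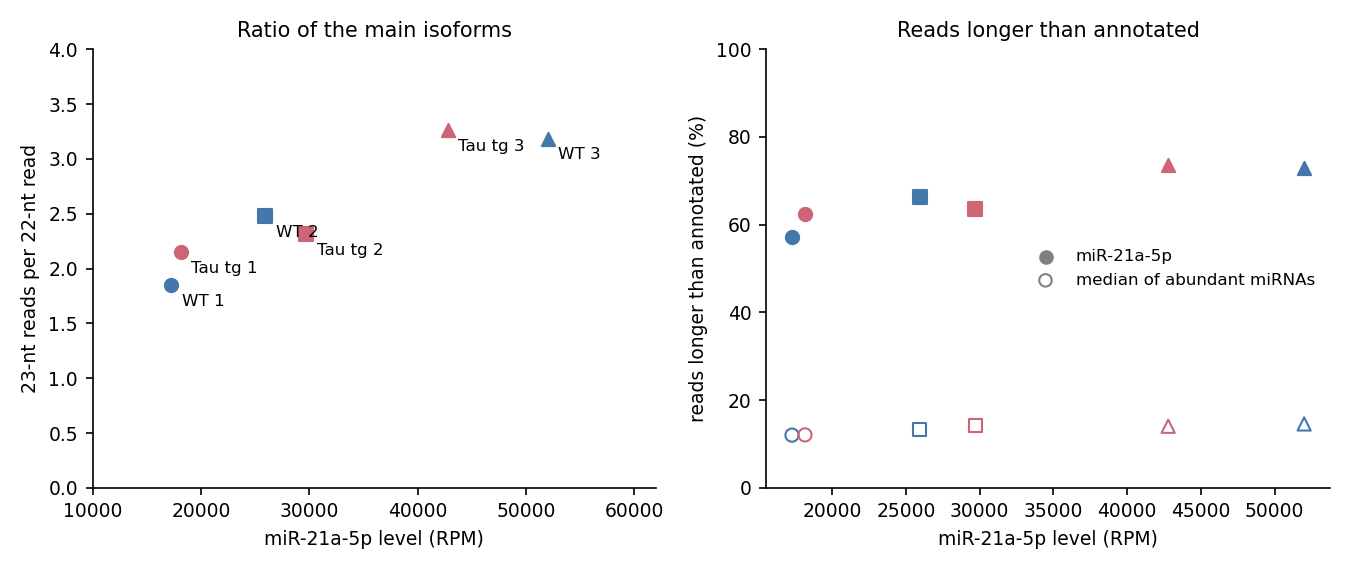
Ratio of 23-nt to 22-nt reads (left) and share of reads longer than annotated (right, percent) against the miR-21a-5p level in RPM, 1 point per mouse, WT blue and Tau tg red, with circles, squares and triangles for replicates 1, 2 and 3. Open symbols give the median share over 86 abundant miRNAs, which stays between 12% and 14.6%, while miR-21a-5p runs from 57.2% to 73.6%.

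Beyond the hairpin sequence, the commonest addition was an A. A tail of A bases was found on 2.91%, 3.06% and 1.66% of the 5p reads for WT mice and on 2.23%, 2.25% and 1.99% for Tau tg mice. Added U was rarer, 0.0392% to 0.25%. Counted over the reads that ended at a given base, A followed the 23-nt form in 1.84% to 4.21% of reads and the 22-nt form in 1.33% to 2.02%. The 23-nt form with A stood at 386, 701 and 672 RPM among WT and 277, 447 and 615 RPM among Tau tg samples, and the 22-nt form with A at 90.4, 86.7 and 173 RPM and 101, 142 and 172 RPM. Both overlapped between the groups. The form ending in CU, which follows the hairpin, reached 124, 133 and 406 RPM among WT and 89.9, 268 and 206 RPM among Tau tg samples.

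The 5′ end was far more uniform than the 3′ end. The annotated start was used by 97.9%, 98.1% and 98.6% of the 5p reads for WT mice and by 98.5%, 96.9% and 97.9% for Tau tg mice. For 86 abundant miRNAs a stricter share was taken, that of reads whose first 15 nt equal the annotated sequence. By that stricter share miR-21a-5p ranked 18 (mean 97.6%, median of all 96.3%). Reads that began 1 base later, with the seed GCUUAU and a seed viability of 80.7%, were 0.413% to 0.938%. Reads that began 1 base earlier were 0.258% to 0.426%. Those that began 4 bases later, with the seed UAUCAG, reached 1.32% in Tau tg 2 and 0.212% to 0.476% elsewhere. The other 8 seeds with a mean of at least 10 RPM lay under 0.5% in every sample, and their viabilities ran from 56.0% (the seed AUAGCU, with 20.6 RPM) to 84.3% (the seed UUAUCA, with 69.1 RPM).

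One of these minor starts did not overlap between the groups. Reads that began 2 bases after the annotated start numbered 14, 4 and 6 for WT mice and 205, 52 and 183 for Tau tg mice. Those are 0.0380%, 0.0104% and 0.0106% of the 5p reads among WT and 0.161%, 0.146% and 0.175% among Tau tg samples. All 3 Tau tg values were above all 3 WT values. Most carried the seed CUUAUC, which has a viability of 68.2% and was borne by 0.0380%, 0.0104% and 0.0106% of the 5p reads in the 3 WT mice and by 0.148%, 0.146% and 0.175% in the 3 Tau tg mice. This start was singled out after its values were seen, so the gap is given as a description.

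**Figure D4:**
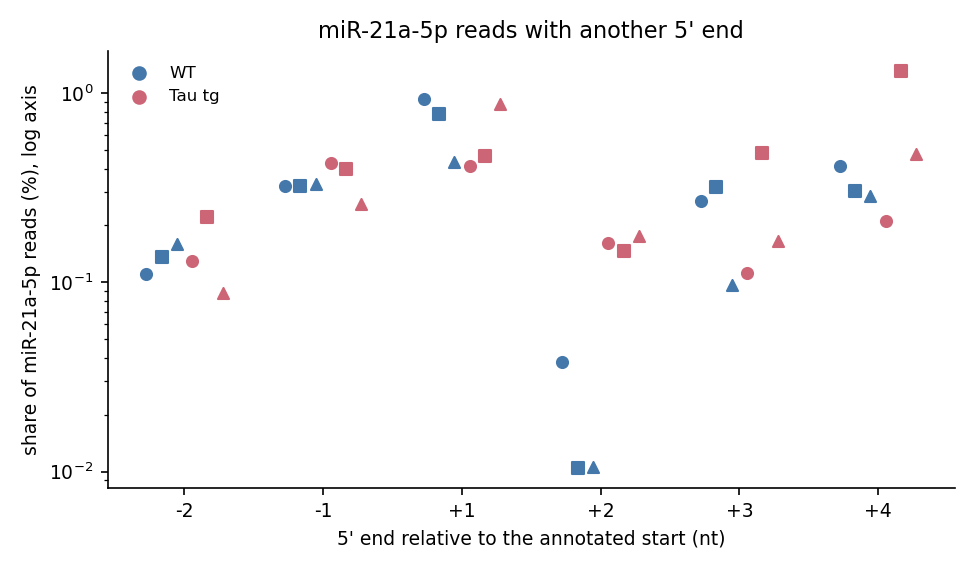
Share of miR-21a-5p reads (vertical axis, percent, log scale) by the 5′ end relative to the annotated start in nt (horizontal axis), 1 symbol per mouse, WT blue and Tau tg red, with circles, squares and triangles for replicates 1, 2 and 3. Only at +2, among the 6 starts drawn, do the groups part, with 0.0104% to 0.0380% among WT and 0.146% to 0.175% among Tau tg samples.

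Most of these reads were the 21-nt read with a start at +2 printed above, which had the lowest p of the miR-21a sequences in the fit of single sequences. It had 9, 0 and 0 reads for WT mice (4.22, 0 and 0 RPM) and 121, 25 and 146 reads for Tau tg mice (17.2, 20.9 and 59.7 RPM). Its log2(RPM + 1) difference was 4.06 ± 1.06 (SE; limma across 36070 sequences, unadjusted p = 0.000124, adjusted p = 0.154), which does not pass an adjusted threshold of 0.05. With a pseudocount of 0.1 RPM the adjusted p of the limma fit was 0.0427, with 5 RPM it was 0.509, and edgeR and DESeq2 on the recovered reads gave 0.277 and 0.201. Over all alternatives, leaving out single samples included, the adjusted p ranged from 0.0427 to 0.99.

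Among the 103 miR-21a sequences tested, 3 had an unadjusted limma p under 0.05, all higher among Tau tg samples, or 2.91% against 2.23% of all 36070 sequences. None passed the adjusted threshold in limma with a pseudocount of 1 RPM, in edgeR or in DESeq2, and with a pseudocount of 0.1 RPM the read with a start at +2 was the 1 that did. The groups did not overlap for 5 of the 103, all higher among Tau tg samples, or 4.85% against 3.60% of all sequences. Both shares lay near the background. Sequences at 0 in all WT samples met the mean of at least 1 RPM only through their Tau tg values. Depth differed as well, with 2050054, 1387001 and 998248 reads for WT mice and 6879551, 1152568 and 2358928 for Tau tg mice. The shared direction of these counts is therefore given as a description. The other 2 sequences under 0.05 were rare. A 21-nt read that follows the hairpin for 19 bases and ends in AA held 0 reads in all WT samples and 13, 22 and 14 reads among Tau tg samples. A 23-nt read with a start at +1 and an end in CU had 0.937, 0 and 0 RPM among WT and 0.285, 15.9 and 16 RPM among Tau tg samples, which overlap. The median log2 difference of the 103 sequences was 0.12, beside −0.16 over all sequences.

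The composition of the 5p arm as a whole was compared with a test that could not give a p under 0.05. The 13 measures compared included start, seed, 3 length classes, mean length, hairpin match, added A and added U. They also included base changes, distinct sequences at equal depth, mean seed viability and the 3p share. The smallest exact two-sided permutation p that 3 against 3 mice allow is 0.1, and the adjusted p was 0.975 to 1. For that reason these p-values do not decide whether the composition differed. The share longer than 22 nt was 65.5 ± 7.9% among WT and 66.5 ± 6.1% among Tau tg mice (SD, n = 3 each, exact permutation p = 0.9). The read-weighted mean seed viability was 80.06 ± 0.0041 among WT and 79.97 ± 0.12 among Tau tg mice (exact permutation p = 0.1), and this was the one measure of the 13 without overlap, lower in all 3 Tau tg samples. Tau tg 2 stood lowest at 79.83, the other Tau tg samples at 80.04 and 80.03 and the WT samples at 80.05 to 80.06, so that the difference of −0.088 was −0.019 without Tau tg 2. The number of distinct 5p sequences, scaled to 35518 reads, was 124, 99.4 and 101 among WT and 117, 124 and 105 among Tau tg samples.

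Single base changes were rare in the 5p arm and were named unevenly. Named rows with 1 changed base made up 0.751% to 0.887% of the 5p reads. Among these named rows the most frequent change was A22G, with 0.0732% to 0.204%, then U19C and U1C, all counted from 1 at the annotated 5′ end. Among reads that begin at the annotated start, 39 of 40 sequences with a change at positions 1 to 4 were named miR-21a-5p, and 0 of 147 with a change at positions 5 to 18 were. Those 147 sequences summed to a mean of 417 RPM and stand in the table without a miRNA name. At each of positions 1 to 18 the changed reads, named or not, amounted to 0.0206% to 0.205% of the unchanged ones. Over those positions A12G was the most frequent single change (56.3 RPM on average).

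**Figure D5:**
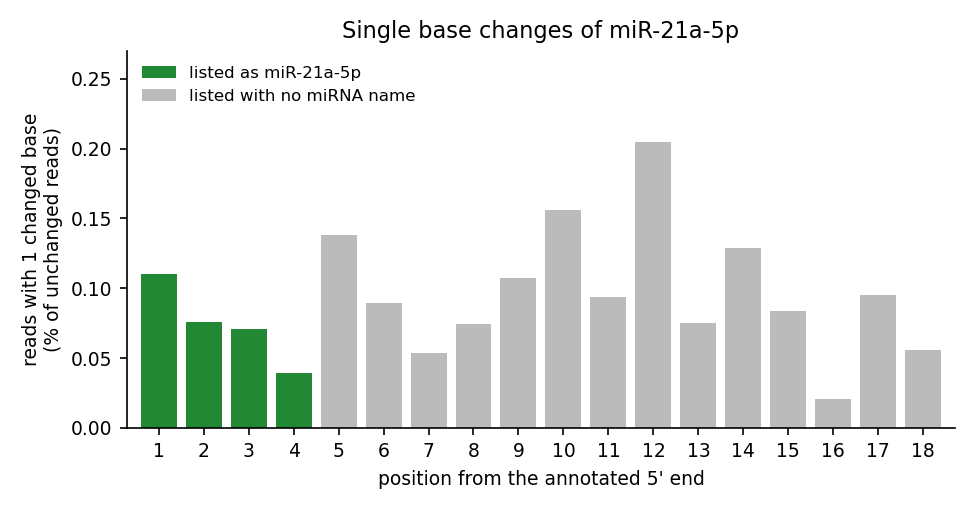
Reads with a single changed base as a percentage of unchanged miR-21a-5p reads (vertical axis, from 0), by position from the annotated 5′ end (horizontal axis), mean RPM over 6 mice. Green bars mark positions at which most changed sequences are listed as miR-21a-5p and grey bars those at which none is. No bar exceeds 0.205%.

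The same naming bears on the 3p arm, where the named rows hold almost none of the reads. Reads named miR-21a-3p numbered 6, 5 and 2 for WT mice and 106, 0 and 14 for Tau tg mice, or 2.81, 3.39 and 1.83 RPM and 15.1, 0 and 5.73 RPM. The 0 reads of Tau tg 2 allow up to 2.51 RPM at its depth. The log2(RPM + 1) difference was 0.40 ± 1.28 (SE; limma, adjusted p = 0.966), and it was −0.48 without Tau tg 1, which held 106 of the 133 reads. The 21-nt read of the 3p arm had 3, 1 and 1 reads among WT and 50, 0 and 1 among Tau tg samples. The read with a start at +2 had 55 of its 56 reads in Tau tg 1, and all 13 of the 20-nt read were in Tau tg 3.

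A further 57 sequences, without a miRNA name, held a core of the 3p arm with the change G6C. G6C is G in the RefSeq mouse sequence and C in the read at position 6, counted from 1 at the annotated 5′ end of the 3p arm. Some of the 57 also had added bases or further mismatches outside that core. These sequences were looked for after the values were seen. They held 515, 829 and 2691 reads for WT mice and 8046, 1111 and 5451 reads for Tau tg mice. That is 241, 562 and 2469 RPM among WT and 1145, 929 and 2230 RPM among Tau tg samples. Of all 3p-arm reads, named or with G6C, 98.7% to 100% carried G6C (widest 95% Wilson interval 97.5% to 99.5%, in WT 1). The level was highest in WT 3 and Tau tg 3, as for the 5p arm, and the groups overlapped, with 1090 ± 1204 RPM among WT and 1435 ± 697 RPM among Tau tg mice (SD, n = 3 each, exact permutation p = 0.6). For every G6C read there were 71.6, 46.2 and 21.1 reads of the 5p arm for WT mice and 15.9, 32.0 and 19.2 for Tau tg mice. The G6C reads were 2.68 ± 1.65% of both arms among WT and 4.64 ± 1.47% among Tau tg mice (SD, n = 3 each, exact permutation p = 0.2).

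The ends of the G6C reads lay mostly at the annotated ends of the 3p arm, and the form with both annotated ends held 865 of their mean 1263 RPM. Reads of 22 nt made up 71.1% of their RPM and reads of 23 nt 20.1%. The seed AACACC, with a viability of 53.0%, was borne by 94.8%, where the annotated 3p seed AACAGC has a viability of 51.0%. A 23-nt form made of the annotated 22 nt and an added A held 559 RPM in WT 3 and at most 89.6 RPM in the other samples.

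Among 211 RefSeq mature sequences with at least 100 RPM at the annotated start, changed reads included, miR-21a-3p had the largest share of reads with 1 single change, 99.7%, beside a median of 0.252%. A share over 50% was found for 4 of the 211 and a share over 5% for 15, in a list that does not include miR-151-3p. A change can also be the sequence of a related miRNA that the RefSeq list used here lacks. As background, the human miR-21 hairpin carries a C at this position of its 3p arm, and the 5p arms of mouse and human are identical, so that 5p reads of the 2 species cannot be told apart. In miR-151-3p, where the human sequence has A and the mouse sequence G at position 10, the change G10A was carried by 12.3%, 14.3% and 8.66% of reads for WT mice and by 4.69%, 11% and 6.49% for Tau tg mice, or 11.9 to 54.3 RPM. Whether human RNA or reads of another library contributed to the miR-21a reads was not tested.

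The pattern of miR-21a-5p over the 6 samples was compared with that of other miRNAs. Among 275 other miRNAs with a mean of at least 100 RPM, the highest Pearson r of log2(RPM + 1) over 6 samples were those of miR-365-3p (0.967), miR-93-5p (0.95), miR-210-3p (0.935), miR-10a-5p (0.9) and miR-106b-5p (0.882). miR-210-3p, the classical miRNA of hypoxia, held 461, 587 and 1980 RPM for WT mice and 545, 1446 and 1811 RPM for Tau tg mice, the same order of samples as miR-21a-5p. The lowest r were those of miR-24-2-5p (−0.966), miR-212-3p (−0.912) and miR-148a-3p (−0.905). These coefficients are picked extremes over 6 samples that share library scaling, and they are given as descriptions.

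Of 16 other miRNAs with known roles in inflammation or in the brain, none had an unadjusted limma p under 0.05, against 25 of all 689 miRNAs (3.63%), of which none passed the adjusted threshold in limma or edgeR and 5 did in DESeq2. The median log2 difference of the 16 was 0.07, beside 0.25 over all miRNAs. miR-146a-5p, induced by NF-κB signalling, stood at 144 ± 78 RPM among WT and 178 ± 30 RPM among Tau tg mice, with a log2 difference of 0.43 ± 0.50 (SE; limma, adjusted p = 0.896). miR-155-5p, the miRNA of activated macrophages and lymphocytes, was close to the limit of detection with 4.50 ± 5.03 and 1.41 ± 2.32 RPM. miR-223-3p, a myeloid miRNA, held 32.8 ± 14.3 and 37.5 ± 16.9 RPM, and miR-142a-3p, shared by blood-derived cells and microglia, 266 ± 98 and 194 ± 51 RPM. The neuronal miR-124-3p, at 77313 ± 14129 and 60257 ± 11426 RPM, and miR-221-3p, at 11394 ± 3862 and 16013 ± 6084 RPM, overlapped between the groups as well (WT against Tau tg, SD, n = 3 each). The other 10 (miR-146b-5p, miR-142a-5p, miR-150-5p, miR-22-3p, miR-27a-3p, miR-132-3p, miR-34a-5p, miR-181a-5p, miR-17-5p and miR-222-3p) had log2 differences between −0.26 and 0.42.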

How the data were processed

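The authors pulled down Ago, sequenced the bound short RNAs on an Illumina instrument, removed adapters (Trim Galore per the submitters' processing notes, version not given in the sources used here), dropped rare and artificial sequences and deposited 1 table of RPM values per distinct sequence, with a miRNA name, a 6mer seed and a deposited percent score, the seed viability. RPM values were whole multiples of 1 read's worth for 100% of values (tolerance 0.05 reads), which gave the reads per sample. Members and miRNA lists were chosen with earlier results of these data known. Reads were placed on the RefSeq hairpin, with up to 3 unmatched 3′ bases counted as a tail. Levels were tested with limma 3.58.1 (R 4.3.3, trend) on log2(RPM + 1) for features with a mean of at least 1 RPM, with Benjamini-Hochberg adjustment over all features. The code was tested on simulated data. Shares were compared by exact two-sided permutation (20 assignments), adjusted over 13 measures, and intervals used Wilson's method at a level of 0.95. edgeR 4.0.16 and DESeq2 1.42.0 on the recovered counts, other pseudocounts, filters and scalings, a replicate block and fits that each dropped 1 sample were alternatives. Named were both arms, the most abundant reads of each kind, seeds with a mean of at least 10 RPM, the 3 commonest base changes, sequences with p under 0.05 and a mean of at least 10 RPM whose groups did not overlap, the miRNAs with the 5 highest and 3 lowest correlations, and the miRNAs of the list; other sequences, the G6C reads and miR-151-3p were singled out after their values were seen. Samples are separate mice per the study's methods. The table's total column was not used in comparisons.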

Additional observations from a re-analysis of the deposited data

Results flagged for a closer look

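Reads of the 3p arm that carry G6C stand outside the rows named miR-21a-3p and outside the planned comparisons, and they reached a mean of 1263 RPM over the 6 samples, where the named rows had a mean of 4.81 RPM. The table's total column exceeded the sum of the 6 sample columns by 1955876 RPM over all sequences, so it holds reads that the 6 sample columns do not. In that excess, miR-21a-5p rows held 165515 RPM and reads that carry G6C 5655 RPM, beside 185872 RPM and 7576 RPM in the 6 samples together. The 6 samples together held 5723783 RPM over all sequences, where the excess held 1955876 RPM. These amounts would compare as levels only after scaling by those totals. Whether the level of miR-21a differed between the excess and the 6 samples was not tested. The 85 miR-21a-5p sequences at 0 in all 6 samples were all above 0 in the total, with at most 10.9 RPM each. No group has more than 3 samples, so no single sample was tested for standing apart from its group.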

How the results depend on the processing

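Of 77 recomputed values that answer a comparison and kept all samples, 71 kept their direction and their side of the threshold (counts within 1.5 times), and single reads and miRNAs are given apart. The log2 difference of the named 3p arm turned to −0.38 with a pseudocount of 0.1 RPM, and the median of the 16 listed miRNAs to −0.089 under median-of-ratios scaling, which moved the median of all miRNAs from 0.25 to 0.08. The 3 sequences at an unadjusted p under 0.05 became 1 with a pseudocount of 5 RPM, 1 with a mean of at least 10 RPM and 1 with edgeR, and 1 sequence passed the adjusted threshold, where none did, with a pseudocount of 0.1 RPM. The cause was not tested. Over all sequences, 803 (519 higher) had an unadjusted p under 0.05 in limma, 1029 with a pseudocount of 0.1 RPM, 429 with 5 RPM, 167 with a mean of at least 10 RPM, 2564 (357 higher) in edgeR and 3344 (260 higher) in DESeq2, and 10, 49 and 459 passed the adjusted threshold in limma, edgeR and DESeq2. The 23-nt read turned to −0.12, −0.061 and −0.27 under median-of-ratios scaling, edgeR and DESeq2, the 21-nt 3p read to −0.57 with a pseudocount of 0.1 RPM, and under median-of-ratios scaling miR-222-3p turned to −0.030, miR-132-3p to −0.094, miR-22-3p to −0.031 and miR-146b-5p to −0.084. Samples of the same replicate number deviated from their group means with correlations of 0.16, −0.14 and 0.17. WT 1 was most like Tau tg 1 and WT 3 most like Tau tg 3, whereas WT 2 was most like Tau tg 3. With 3 mice per group these values cannot decide whether the replicate numbers pair the mice. With the replicate block the 5p difference had an SE of 0.27, where the main fit had 0.42, and a limma adjusted p of 0.998. Under that block 2 sequences in place of 3 were under 0.05. No row of another name held bases 1 to 18 of miR-21a-5p, so that alternative gave no value.

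Leaving out each sample in turn gave log2 differences of −0.37 to 0.43 for the 5p arm and −0.48 to 1.52 for the 3p arm, 1 to 4 sequences under 0.05, and a list median of −0.051 to 0.14. The 23-nt read ranged from −0.44 to 0.56, the 22-nt read from −0.28 to 0.32, the read ending in CU from −0.46 to 0.41, the start at +1 from −1.10 to 0.13, the 21-nt 3p read from −0.74 to 0.77 and the 3p read with a start at +2 from −0.25 to 1.32. Of the listed miRNAs, miR-222-3p ranged from −0.038 to 0.28, miR-132-3p from −0.063 to 0.16, miR-181a-5p from −0.14 to 0.20, miR-22-3p from −0.17 to 0.41, miR-146b-5p from −0.091 to 0.22, miR-142a-5p from −0.34 to 0.015 and miR-223-3p from −0.25 to 0.63. In percentage points, Tau tg minus WT ranged from −0.799 to 0.0342 for the annotated start, −2.16 to 1.36 for 22 nt, −3.09 to 4.78 for longer and −2.62 to 1.73 for shorter reads, −0.0403 to 0.0653 for added U, −0.0143 to 0.0525 for base changes and −0.00426 to 0.0372 for the 3p share. Mean length ranged from −0.0639 to 0.0615 nt and the G6C reads from −80.4 to 1033 RPM. The shallowest sample, WT 3, has 998248 reads, so that 1 read is worth 0.917 RPM there and sequences under about 3 RPM rest on few reads.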
